A study of Rattus norvegicus with 20 samples.

Results

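The choroid plexus transcriptome of obese Zucker rats given testosterone (obese + TT, rats 17 to 20) was set against that of lean Zucker rats given the oil vehicle (lean control, rats 13 to 16). These 8 libraries, chosen by their labels from the 20 of the series, were read at the 11939 genes whose mean reached 1 TPM across them, which are 36.3% of the 32883 Ensembl genes in the files. TPM gives a gene's share of the transcripts of a library after division by gene length. All rats were female and 16 weeks old, and RNA came from the choroid plexus of the lateral and the fourth ventricles, as 1 library per rat. The lean control rats were heterozygous (+/fa) and received subcutaneous sesame oil, while the obese + TT rats were homozygous for the leptin receptor mutation (fa/fa) and received testosterone propionate in the same oil, repeatedly over the weeks before sampling. Genotype, body weight and testosterone therefore changed together between the groups and cannot be told apart, and the estrous cycle was not controlled. Obese rats given oil alone and lean rats given testosterone were not analysed here. The other 12 rats, 6 lean and 6 obese, were not injected, and they appear below only where the same genes are read in them.

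The choroid plexus is a folded epithelium over a vascular stroma that secretes most of the cerebrospinal fluid (CSF). Its epithelial cells drive sodium, chloride and bicarbonate into the ventricle through the Na,K-ATPase, the cotransporter NKCC1 and bicarbonate carriers, with water passing through the aquaporin AQP1, and they export carriers of thyroid hormone and retinol such as transthyretin. Testosterone acts largely through the androgen receptor, a transcription factor of the nuclear receptor family, and leptin through a cytokine-type receptor that is abundant in this epithelium. The question put to these libraries was whether genes of the secretion machinery, or genes that could regulate it, differ between obese rats with added androgen and lean rats.

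Each library listed 14968 to 16860 genes above 0. Transthyretin (Ttr), the main secreted product of the tissue, took 25.8 to 30.5% of the TPM of a rat. All 12 epithelial markers were measured, and their summed level was 285170 to 317340.0 TPM in the lean control and 270994 to 307738 TPM in the obese + TT rats. Ttr is one of the 12 and makes up most of this sum, so the tissue label rests here on Ttr in each library. Lean control rat 14 stood apart on the first principal component (54.5, against -14.7 to 8.03 in the other 7 rats; the component carries 23.3% of the variance), and rat 16 on the second (-38.7, against -10.3 to 27.7). Among the 10 macrophage, 9 neuronal, 6 oligodendrocyte and 3 pineal markers looked for, none has a symbol in the tables used here, so these cells were not assessed. Because these are bulk samples, fewer cells of a type and less RNA per cell cannot be told apart in any value that follows. The number of reads behind each TPM is unknown, and the p-values measure only the spread between these rats.

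The expression of most genes differed little between obese + TT and lean control rats. The clearest gaps between the groups were in Prlr, Pik3ap1, Ube2v2, Nphs1 and Cacna2d2, all lower in the obese + TT rats, while the genes of ion and water transport that secrete CSF were nearly level. None of the 11939 genes (0%) had an adjusted p under 0.05 in limma on log2(TPM + 0.1) with Benjamini-Hochberg adjustment. The lowest adjusted p was 0.0779, shared by 5 genes that all had a lower mean in the obese + TT rats. Without adjustment, 965 genes had a p under 0.05, 538 with a higher mean (4.51% of those tested) and 427 with a lower mean (3.58%). When the TPM were recomputed without Ttr, the same split was 384 higher and 739 lower, so the balance of directions at this level depended on the scaling. The median absolute log2 fold change was 0.0896 over all genes tested, and 79.2% of genes lay under 0.2.

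A second reading counted the genes whose groups do not overlap, meaning that every obese + TT rat lay above, or below, every lean control rat. For a single gene such a gap gives the smallest p that the exact two-sided permutation test over the 70 splits of 8 rats allows, 0.0286. There were 521 such genes, 308 of them higher (2.58% of the genes tested) and 213 lower (1.78%) in the obese + TT rats. Without Ttr in the TPM these numbers were 199 and 415. The differences were small, with a median absolute log2 fold change of 0.266, and only 74 of the 521 were past 1.5-fold in the ratio of TPM (36 higher and 38 lower) and 27 past 2-fold (12 higher and 15 lower). Of the 947 genes whose mean reached 100 TPM, 37 were higher and 22 lower without overlap.

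**Figure D1:**
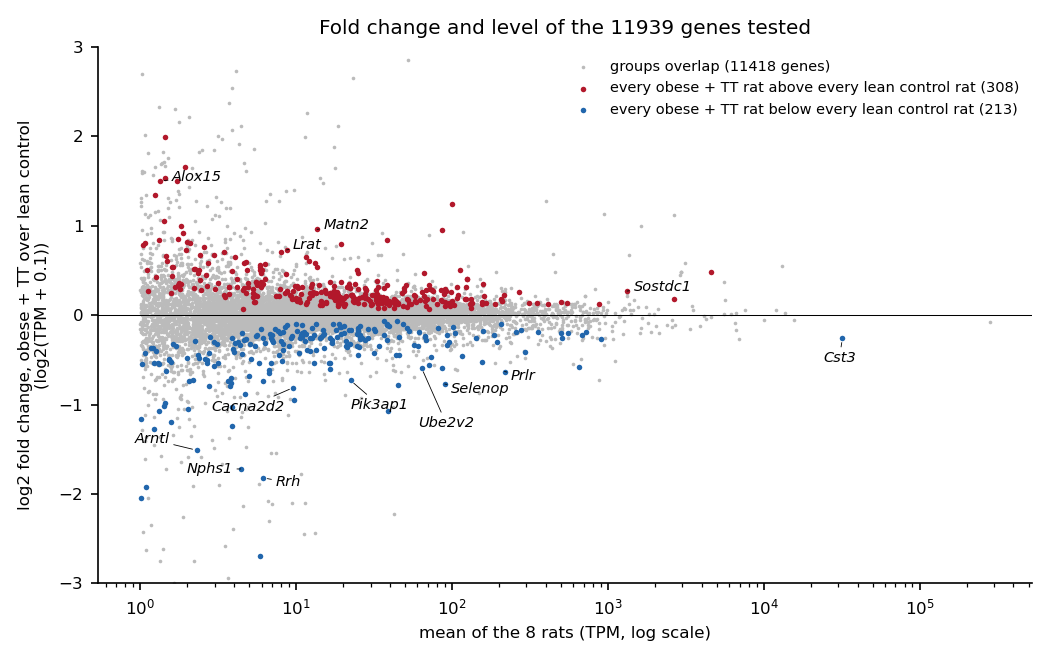
Log2 fold change of obese + TT over lean control (y axis, log2(TPM + 0.1)) against the mean of the 8 rats (x axis, TPM on a log scale) for the 11939 genes tested, with 17 genes outside the plotted range of 3 in either direction. Grey points are genes whose groups overlap, red points the 308 and blue points the 213 genes whose groups do not, and both kinds spread from the lowest to the highest levels.

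Leaving out single rats changed these counts. Without lean control rat 13, 24 genes had an adjusted p under 0.05, while without each of the other rats the number was between 0 and 3. Of the 521 genes whose groups do not overlap, rat 13 was the lean control rat nearest to the obese + TT rats in 192, or 36.9%, against 51 for rat 14, 138 for rat 15 and 140 for rat 16. Prlr, Pik3ap1, Nphs1 and Cacna2d2 were among the 24 (adjusted p = 0.0345, 0.0361, 0.0223 and 0.0345 from limma), and Ube2v2 was not (0.0537). Values without rat 13 are given beside the other genes of the 24 that are described below. Leaving out rat 13 gave the most genes of the 8 omissions, so these values are not calls on all 8 rats. Without rat 14, which stood apart on the first principal component, 0 genes passed. Prlr, Pik3ap1, Nphs1, Cacna2d2 and Ube2v2 then each had an adjusted p of 0.306 in limma.

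A symbol was available for 2552 of the genes tested. Of these, 2244 were named by their abundance alone, and 77 of them (3.43%) were higher and 46 (2.05%) lower without overlap. The other 308 carry a symbol only because the study listed them as changed on these or on the untreated libraries, so their direction is not independent evidence, and gene groups are counted below over the members named by abundance. Among the 181 genes tested that are on the study's list for this pair of groups, 98 had groups that do not overlap.

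The 5 genes at the lowest adjusted p were a prolactin receptor, an adaptor of phosphoinositide 3-kinase, the slit diaphragm protein nephrin, a calcium channel subunit and a ubiquitin-conjugating enzyme variant. Prlr (ENSRNOG00000057557), the receptor through which prolactin acts on this epithelium, was at 245, 273, 289 and 247 TPM in the lean control rats and at 167, 148, 185 and 184 TPM in the obese + TT rats. Every obese + TT rat was thus below the lowest lean control rat, with means of 263 ± 21.4 and 171 ± 17.4 TPM (SD, n = 4 of each; log2 fold change -0.63, standard error 0.09, adjusted p = 0.0779 from limma). In the untreated cohort Prlr averaged 155 ± 31.0 TPM in the lean and 144 ± 33.7 TPM in the obese group (SD over 6 rats), and the lean control rats had the highest mean of the 4 groups. Pik3ap1, Nphs1 and Cacna2d2, described next, have a symbol here only through the study's list.

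Pik3ap1 (ENSRNOG00000013309), which couples immune receptors to phosphoinositide 3-kinase, was at 29.2, 26.0, 28.4 and 27.9 TPM in the lean control rats and 17.4, 16.5, 19.1 and 14.3 TPM in the obese + TT rats. The groups were tight and far apart (means 27.9 ± 1.38 and 16.8 ± 2.00 TPM; log2 fold change -0.73, standard error 0.09, adjusted p = 0.0779 from limma). The means of untreated lean and obese rats (26.3 ± 2.86 and 26.1 ± 6.95 TPM) were near that of the lean control rats. Untreated obese rats ran from 17.8 to 36.1 TPM, and rats 8 and 12 (17.8 and 18.5 TPM) lay inside the obese + TT range. Ube2v2 (ENSRNOG00000001829), a partner in lysine-63 ubiquitin chain formation, was at 78.9, 73.5, 74.5 and 79.4 TPM against 52.0, 48.1, 58.8 and 44.8 TPM. Its ratio was close to that of Pik3ap1 (log2 fold change -0.59, standard error 0.08, adjusted p = 0.0779 from limma), at a level of 60.7 ± 6.59 TPM in untreated lean rats.

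Nphs1 (ENSRNOG00000020873), nephrin of the kidney filtration slit, was at 4.80, 8.95, 8.92 and 4.79 TPM in the lean control and 1.61, 1.86, 2.28 and 1.97 TPM in the obese + TT rats, and gave the steepest fold of the 5 (log2 fold change -1.72, standard error 0.24, adjusted p = 0.0779 from limma). The lean control rats fell into a high and a low pair, and the low pair was still more than 2-fold above the highest obese + TT rat. Cacna2d2 (ENSRNOG00000015835), an auxiliary subunit of voltage-gated calcium channels, was at 10.9, 12.6, 12.1 and 13.3 TPM against 7.72, 5.60, 7.43 and 7.04 TPM (log2 fold change -0.81, standard error 0.11, adjusted p = 0.0779 from limma). Cacna2d2 was also lower without overlap in the untreated obese rats (4.63 ± 0.75 TPM, against 6.52 ± 0.71 TPM in untreated lean rats, SD over 6 rats).

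**Figure D2:**
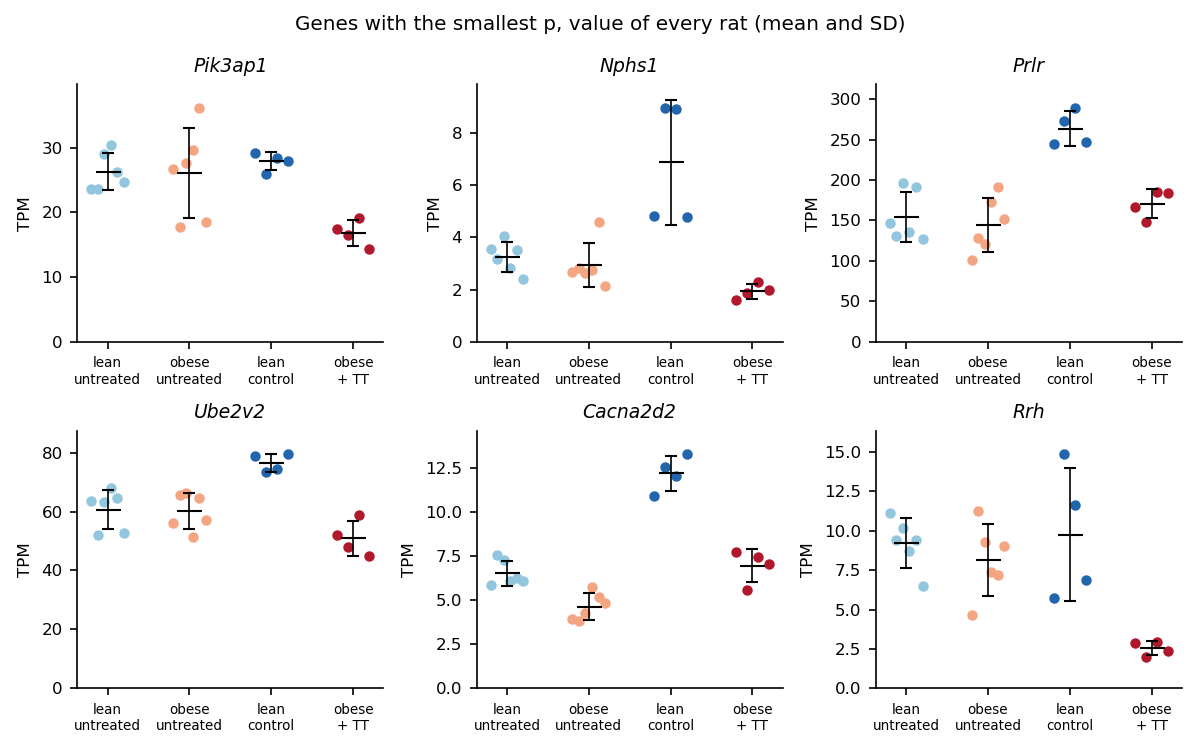
TPM of every rat (points; y axes start at 0) with the mean and SD (black) for the 5 genes at the lowest adjusted p and for Rrh, in the untreated and the injected groups. In each panel the 4 obese + TT rats lie below the 4 lean control rats, and the lean control rats have the highest mean of the 4 groups.

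Other genes at the small end of the p-values also had lower means in the obese + TT rats. Pon1, paraoxonase 1, an enzyme of high-density lipoprotein, was at 84.6 ± 9.00 and 57.5 ± 6.30 TPM (log2 fold change -0.56, standard error 0.10, adjusted p = 0.265 from limma). Without rat 13 the log2 fold change of Pon1 was -0.63 (adjusted p = 0.039 from limma), and without rat 14 it was -0.51 (adjusted p = 0.734). Strip2, a subunit of a phosphatase-kinase scaffold, was at 85.1 ± 5.38 and 61.5 ± 6.54 TPM, and Scg3, a granin of secretory granules, at 36.0 ± 0.98 and 26.9 ± 2.55 TPM (log2 fold changes -0.47 and -0.42, adjusted p = 0.265 for both from limma). All 3 had groups that do not overlap. Among genes with a symbol whose groups do not overlap, the lowest log2 fold changes after Rrh, Nphs1 and the clock gene Arntl, described further on, were those of Wdr86 (-1.24), Kit (-1.07, the stem cell factor receptor), Lrrc38 (-1.03, an auxiliary subunit of BK potassium channels), Cd93 (-1.02), Plekhd1 (-0.98) and Grp (-0.95, gastrin-releasing peptide). That of Wdr86 was -1.53 without rat 13 (adjusted p = 0.0233 from limma) and -1.03 without rat 14 (adjusted p = 0.734). At the other end stood Hpca (1.50), Alox15 (1.50, an arachidonate lipoxygenase), Matn2 (0.96), Sorcs1 (0.92), Cdc25b (0.85), Gja1 (0.76, connexin 43) and Tmem132c (0.73), leaving aside the genes of uncertain estimation given later. All of these genes at either end have a symbol only through the study's list. Kit, Cd93, Plekhd1, Hpca, Alox15, Sorcs1, Cdc25b, Gja1 and Tmem132c were under 4 TPM in every injected rat. In the untreated obese rats Cd93 reached 7.30 TPM and Gja1 9.12 TPM. Gja1 was also the only one of 7 astrocyte markers with a symbol, at 2.32, 1.21, 1.62 and 2.47 TPM in lean control and 3.39, 2.94, 3.17 and 3.26 TPM in obese + TT rats. Of the cell cycle genes 4 are named by abundance, and 1 was higher without overlap, Cdkn1c, with a median of 0.05. Over all genes named by abundance, 3.43% were higher and 2.05% lower without overlap.

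Retinoid handling, by which vitamin A is taken up, stored and turned into retinal and retinoic acid, had members on both sides of 0. Of its 22 genes, 9 have a symbol here, 6 of them by abundance. Of those 6, 2 were higher without overlap and none lower, against 3.43% and 2.05% of all genes named by abundance. The median log2 fold change of the 6 was 0.17, against 0.017 over all genes named by abundance. Stra6, the membrane receptor that takes up retinol from its binding protein, was at 109, 90.8, 85.0 and 96.2 TPM in the lean control rats and 127, 112, 116 and 122 TPM in the obese + TT rats, so the lowest obese + TT rat was just above the highest lean control rat, rat 13 (log2 fold change 0.32, standard error 0.08, adjusted p = 0.393 from limma). Abca4, a flippase of retinylidene lipids best known from photoreceptors, was at 78.4, 82.0, 74.5 and 90.4 TPM and 99.7, 97.2, 103 and 97.0 TPM, again without overlap (log2 fold change 0.29, standard error 0.07, adjusted p = 0.327 from limma).

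The retinoid enzymes and opsin gave larger values on both sides. Lrat, which esterifies retinol for storage, was at 8.74, 6.60, 6.03 and 4.93 TPM in the lean control and 9.79, 11.9, 11.5 and 9.88 TPM in the obese + TT rats, all of them higher (log2 fold change 0.73, standard error 0.16, adjusted p = 0.327 from limma; 0.87 with adjusted p = 0.0384 without rat 13). Rrh (ENSRNOG00000053349), the opsin peropsin that binds all-trans-retinal, was at 5.75, 14.8, 11.6 and 6.84 TPM and 2.88, 1.97, 2.91 and 2.37 TPM, the lowest fold change among genes with a symbol whose groups do not overlap (log2 fold change -1.82, standard error 0.28, adjusted p = 0.141 from limma; -2.04 with adjusted p = 0.0223 without rat 13). Untreated lean rats averaged 9.22 ± 1.57 TPM of Rrh and untreated obese rats 8.13 ± 2.27 TPM, so the obese + TT group was the lowest of the 4. Leaving out rat 14 instead gave 0.74 for Lrat and -1.58 for Rrh (adjusted p = 0.734 and 0.306 from limma). Lrat and Rrh have a symbol only through the study's list. Rdh11, a retinal reductase, was at 104 ± 13.0 and 81.3 ± 4.36 TPM and Rlbp1, the cellular retinaldehyde-binding protein, at 119 ± 19.7 and 94.2 ± 2.64 TPM, and rat 13 was the only lean control rat inside the obese + TT range in both (log2 fold changes -0.35 and -0.32). Crabp2 (0.07) and the receptor gene Rarg (-0.21) overlapped.

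**Figure D3:**
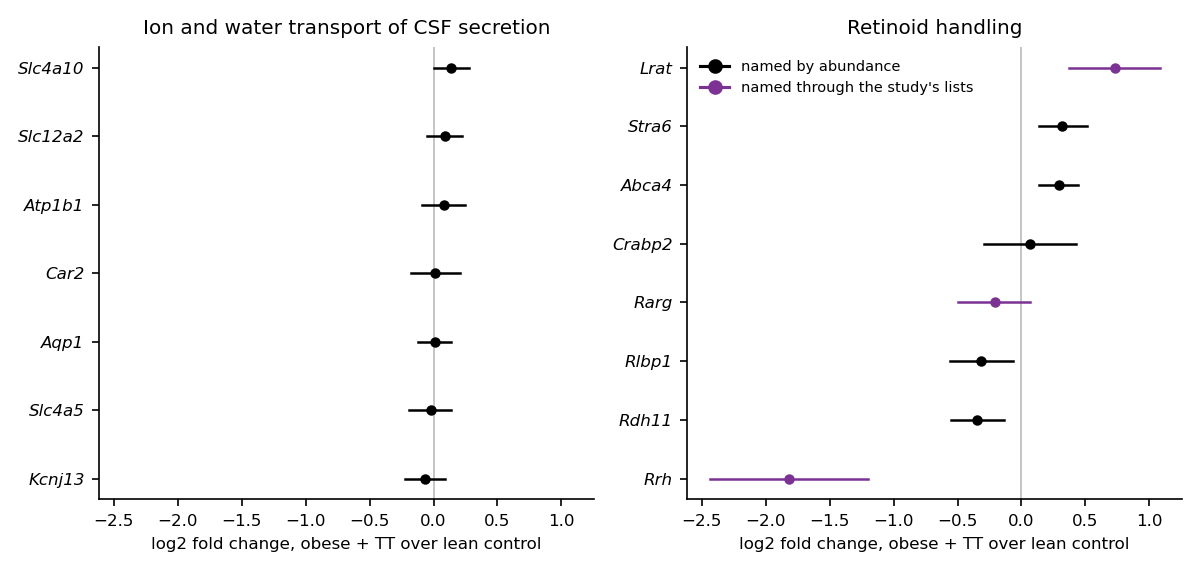
Log2 fold change of obese + TT over lean control with its 95% interval from limma (x axes) for 7 genes of CSF secretion (left) and 8 genes of retinoid handling (right) that the text describes, black for genes named by abundance and purple for genes named through the study's lists. The 7 secretion genes lie between -0.07 and 0.14, and the 8 retinoid genes between -1.82 and 0.73. Both ends of the retinoid spread, Rrh and Lrat, are genes named through the study's lists. Retinoid genes named by abundance ran from -0.35 to 0.32.

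The machinery of CSF secretion was nearly level between the groups. Of 24 genes of pumps, cotransporters, channels and carbonic anhydrase, 15 have a symbol, all by abundance, and all 15 had overlapping groups. Log2 fold changes ran from -0.07 to 0.14, with a median of 0.02 (-0.01 when the TPM were recomputed without Ttr), and the 95% interval of each gene held 0. The outermost bounds of those intervals were -0.23 and 0.28, or 15.0% lower and 21.3% higher when turned back from the log2 scale. Slc12a2 (NKCC1) was at 323 ± 9.34 and 343 ± 22.2 TPM, Slc4a10 (the sodium-coupled bicarbonate transporter of the basolateral side) at 327 ± 17.0 and 360.4 ± 22.0 TPM, Slc4a5 at 663 ± 47.1 and 652 ± 47.1 TPM, Aqp1 at 742 ± 39.3 and 748 ± 26.3 TPM, Car2 (carbonic anhydrase 2) at 1395 ± 157 and 1402 ± 83.3 TPM, the pump subunit Atp1b1 at 1227 ± 108 and 1294 ± 65.2 TPM, and the potassium channel Kcnj13 at 1296 ± 66.3 and 1239 ± 86.4 TPM (lean control and obese + TT, SD, n = 4 of each). Among 26 genes of P-type and vacuolar ATPases, all named by abundance, none was without overlap. The shares without overlap over all genes named by abundance were 3.43% higher and 2.05% lower.

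Most solute carriers overlapped too, in a list that was not restricted to genes outside this core. Of 50 solute carrier genes named by abundance, 2 were higher without overlap and none lower, against 3.43% and 2.05% of all genes named by abundance. Slc5a5, the sodium iodide symporter, was at 66.2, 58.1, 57.6 and 71.7 TPM in lean control and 79.0, 77.0, 81.3 and 82.0 TPM in obese + TT rats (log2 fold change 0.34, standard error 0.08, adjusted p = 0.327 from limma), and Slc48a1, a heme transporter, at 64.3 ± 2.16 and 72.8 ± 2.43 TPM. The most abundant carrier, Slc22a17 (a lipocalin receptor), was at 1429 ± 144 and 1484 ± 94.3 TPM with overlap. Slc4a8, a sodium-driven chloride bicarbonate exchanger named through the study's list, was lower at 3.28, 3.29, 3.16 and 4.44 TPM against 2.04, 1.79, 2.81 and 2.88 TPM. All 3 potassium channel genes named by abundance overlapped, Kcnj13 of the core among them, with Kcne2 at 563 ± 27.6 and 615 ± 26.0 TPM. Of 3 ABC transporters named by abundance, Abca4 was the one without overlap, and Abca2 was at 134 ± 14.4 and 142 ± 8.71 TPM. In thyroid hormone handling, 5 genes are named by abundance, Slc5a5 was the one without overlap, and Hr, a thyroid-hormone-responsive corepressor on the study's lists, was at 3.76 ± 0.35 and 2.55 ± 0.13 TPM.

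The epithelial identity genes were mostly level, and Prlr was the only one of 12 without overlap (median log2 fold change 0.03). Among those with overlap, 1 was higher at an unadjusted p under 0.05 in limma. Ttr was at 289017 ± 14366 and 272901 ± 16174 TPM, and Enpp2 (autotaxin) at 5222, 5085, 5111 and 5882 TPM against 5455, 5963, 6264 and 6359 TPM with overlap (log2 fold change 0.17, standard error 0.08, adjusted p = 0.624 from limma). Of 8 ciliary genes named by abundance, 7 had a higher mean in the obese + TT rats, 2 were higher without overlap and none lower, with a median of 0.13. Over all genes named by abundance, 1254 of 2244 had a higher mean, and 3.43% were higher and 2.05% lower without overlap. Ift46, of intraflagellar transport, was at 58.3, 54.2, 61.1 and 61.1 TPM against 69.3, 70.5, 72.8 and 67.4 TPM (log2 fold change 0.26, standard error 0.06, adjusted p = 0.329 from limma), and Tekt1, of the axoneme, at 76.9 ± 3.68 and 84.2 ± 2.43 TPM. Akap14 was higher (4.74 ± 0.64 and 7.00 ± 0.46 TPM) and the rootlet gene Crocc lower (27.9 ± 2.76 and 23.1 ± 1.03 TPM), both named through the study's list. Cfap126 (207 ± 16.1 and 232 ± 12.7 TPM), Rsph9 (248 ± 6.28 and 252 ± 14.7 TPM), Rsph1 (70.5 ± 8.02 and 76.5 ± 7.53 TPM) and Dynlrb2 (148 ± 16.0 and 153 ± 4.67 TPM) overlapped. Among junction genes, 4 are named by abundance, and Cldn1 was the one without overlap, at 93.0, 111, 106 and 114 TPM in lean control and 83.3, 78.9, 90.0 and 91.1 TPM in obese + TT rats (log2 fold change -0.30, standard error 0.08, adjusted p = 0.413 from limma), while Cldn2 (733 ± 31.2 and 693 ± 36.3 TPM) and Jam3 (138 ± 10.2 and 151 ± 11.6 TPM) overlapped.

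The values of the 5 clock genes with a symbol separated, or nearly separated, obese + TT from lean control rats, and they also varied among the lean control rats. The circadian clock couples the activators BMAL1 (encoded by Arntl) and CLOCK to their repressors in the PER, CRY and REV-ERB families, and the PAR-bZIP factor DBP is one of its outputs. Of 20 clock genes 5 have a symbol, only Dbp by abundance, so their values are given one by one. The other 4 have a symbol only because the study listed them as changed. Their gaps are therefore not independent evidence about the clock, and clock genes without a symbol were not assessed. Arntl (ENSRNOG00000014448) was at 1.56, 4.67, 2.80 and 5.02 TPM in the lean control rats and 1.06, 0.79, 1.11 and 1.35 TPM in the obese + TT rats (log2 fold change -1.51, standard error 0.35, adjusted p = 0.329 from limma). Rat 13, at 1.56 TPM, was the lean control rat nearest to the obese + TT rats, and without it the log2 fold change was -1.83 with adjusted p = 0.039. Leaving out rat 14 instead gave -1.33 for Arntl (adjusted p = 0.744 from limma).

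Dbp showed the mirror image, with 136, 49.9, 73.5 and 76.9 TPM in the lean control and 135, 175, 166 and 128 TPM in the obese + TT rats. Rat 13 alone overlapped with the obese + TT rats (log2 fold change 0.93, standard error 0.25, adjusted p = 0.427 from limma; 1.19 with adjusted p = 0.034 without rat 13). For Dbp, leaving out rat 14 gave 0.71 (adjusted p = 0.769 from limma). Nr1d2, which encodes REV-ERB beta, a repressor of Arntl, was at 49.2, 37.2, 44.4 and 47.9 TPM and 53.7, 54.9, 57.6 and 58.4 TPM without overlap. Cry2 (21.4 ± 1.74 and 24.7 ± 0.82 TPM), a repressor, was higher without overlap, and Bhlhe41 (21.9, 12.0, 12.3 and 18.3 TPM against 24.2, 25.6, 26.9 and 20.3 TPM) overlapped. Wee1, a mitotic kinase known as a clock output, was at 12.0, 7.87, 8.24 and 8.06 TPM against 12.8, 15.5, 12.3 and 16.0 TPM (log2 fold change 0.65, standard error 0.15, adjusted p = 0.327 from limma; 0.80 with adjusted p = 0.0345 without rat 13). For Wee1, leaving out rat 14 gave 0.59 (adjusted p = 0.734 from limma). Usp2, a rhythmic deubiquitinase added here after its values were seen, was at 52.3 ± 1.37 and 61.7 ± 4.68 TPM without overlap. In each of Arntl, Dbp, Nr1d2, Cry2, Bhlhe41, Wee1 and Usp2, rat 13 was the lean control rat nearest to the obese + TT rats. The time of day at which each rat was taken was not given in the sources used here, so its part in these values was not tested. The group means of the untreated rats were nearer to each other, with values for lean and obese of 1.74 ± 0.54 and 1.52 ± 0.56 TPM for Arntl and of 91.9 ± 23.2 and 97.9 ± 20.9 TPM for Dbp (SD over 6 rats).

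**Figure D4:**
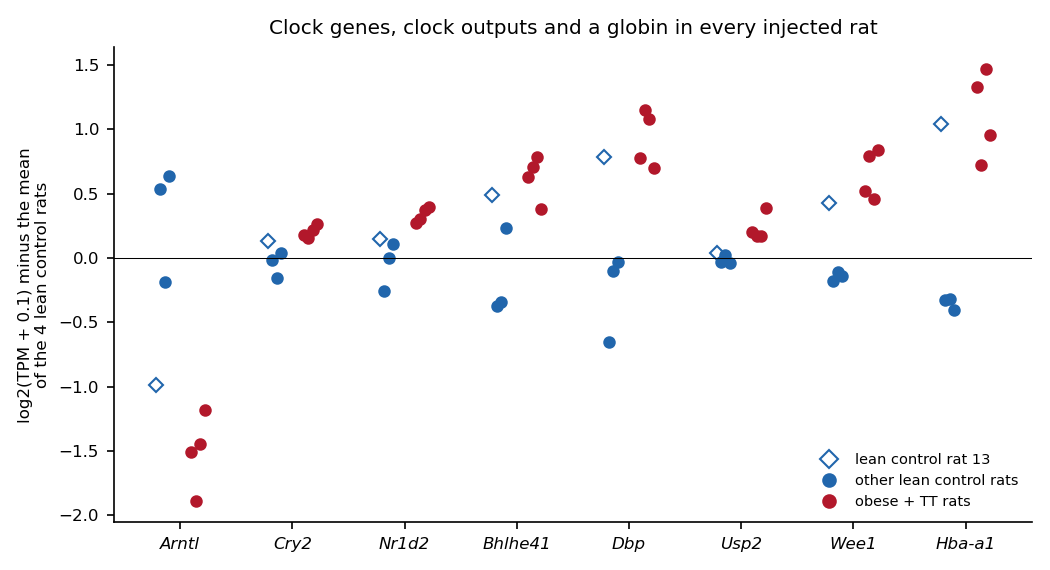
Log2(TPM + 0.1) of every injected rat minus the mean of the 4 lean control rats (y axis) for 5 clock genes, the outputs Usp2 and Wee1, and the globin Hba-a1. Blue points are lean control rats, open diamonds mark lean control rat 13 and red points are obese + TT rats. Rat 13 lies nearest to the obese + TT rats in each gene and within their range for Bhlhe41, Dbp and Hba-a1.

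The promoters of 3 of these clock genes are shown because they hold letters that clock factors are known to bind. The sequences are RefSeq windows of 300 bases in build GRCr8, from 250 before to 50 after the annotated start, which is not the build of the expression files. Both strands were searched for the REV-ERB and ROR half-site AGGTCA, present in 16.2% of all 33469 windows of this length, for the E-box CACGTG (6.42%) and for the D-box TTATGNAA (3.66%). Capitals mark AGGTCA or CACGTG. For Arntl (Bmal1 in RefSeq) the window is chr1:176766078-176766377 on the plus strand, for Nr1d2 chr15:9954784-9955083 on the plus strand, and for Bhlhe41 chr4:180569306-180569605 on the minus strand.
Arntl: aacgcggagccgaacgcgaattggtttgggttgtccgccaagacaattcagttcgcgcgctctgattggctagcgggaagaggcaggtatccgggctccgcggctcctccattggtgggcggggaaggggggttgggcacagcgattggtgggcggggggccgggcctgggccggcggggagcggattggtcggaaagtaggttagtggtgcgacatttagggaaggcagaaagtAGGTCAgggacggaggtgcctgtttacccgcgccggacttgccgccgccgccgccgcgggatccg
Nr1d2: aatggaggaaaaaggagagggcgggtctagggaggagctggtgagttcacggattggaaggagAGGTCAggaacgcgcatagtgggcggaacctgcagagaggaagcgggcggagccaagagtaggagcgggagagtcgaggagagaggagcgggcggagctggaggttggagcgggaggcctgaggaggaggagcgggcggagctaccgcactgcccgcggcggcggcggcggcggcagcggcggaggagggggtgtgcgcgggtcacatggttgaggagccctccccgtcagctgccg
Bhlhe41: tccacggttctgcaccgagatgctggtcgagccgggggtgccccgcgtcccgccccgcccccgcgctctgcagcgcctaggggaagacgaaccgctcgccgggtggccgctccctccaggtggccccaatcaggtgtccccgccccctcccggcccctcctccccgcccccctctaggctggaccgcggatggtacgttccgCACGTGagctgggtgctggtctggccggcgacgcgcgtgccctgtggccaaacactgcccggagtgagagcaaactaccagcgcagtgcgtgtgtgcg

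The Arntl window held 1 AGGTCA beginning 15 bases before the start, the Nr1d2 window 1 AGGTCA beginning 187 bases before it, and the Bhlhe41 window 1 CACGTG beginning 48 bases before it. The windows of Dbp and Cry2 held none of the 3 motifs, and none of the 5 held the D-box. The androgen receptor half-site AGAACA, found in 20.7% of all windows on either strand, was not among the letters of the windows of Prlr, Nphs1, Pik3ap1, Cacna2d2 and Rrh. Of these 5, the Nphs1 window held 1 AGGTCA and the Pik3ap1 window 1 CACGTG. A match is a description of the letters and not a sign of binding in these rats.

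Among collagen and smooth muscle genes, Col27a1 and Tagln, of 5 named by abundance, were lower without overlap in the obese + TT rats, and none passed the adjusted test. Lower without overlap were 2.05% of all genes named by abundance. Col27a1, a fibrillar collagen of cartilage-like matrices, was at 52.7, 58.0, 53.4 and 63.2 TPM in lean control and 34.0, 23.5, 35.4 and 41.4 TPM in obese + TT rats, with a wide gap between the groups (log2 fold change -0.78, standard error 0.15, adjusted p = 0.327 from limma). It was 1 of 3 collagens of the list named by abundance, and Col9a3 (242 ± 21.3 and 203 ± 20.5 TPM) and Col8a1 (182 ± 16.3 and 169 ± 10.9 TPM) overlapped. Of the collagens named through the study's list, Col5a1 was at 4.74 ± 0.66 and 2.74 ± 0.62 TPM, Col5a2 at 8.16 ± 0.94 and 5.67 ± 1.28 TPM and Col6a2 at 15.4 ± 1.00 and 10.7 ± 1.38 TPM, all without overlap. The 6 collagens summed to 470.3 to 562 TPM in lean control rats, above the sums of 381 to 459.7 TPM in obese + TT rats. The 3 of them named by abundance summed to 443 to 532 TPM and 366 to 439 TPM, also without overlap. Tagln (transgelin) was at 4.29, 4.03, 2.53 and 3.17 TPM against 2.10, 2.52, 1.56 and 1.71 TPM, and Myh11, the smooth muscle myosin heavy chain, at 8.14, 8.08, 8.43 and 6.15 TPM against 5.34, 4.49, 4.51 and 3.90 TPM (adjusted p = 0.427 and 0.265 from limma).

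Other vascular and stromal genes had overlapping groups. The pericyte gene Rgs5 was at 9.25, 1.68, 2.74 and 8.36 TPM against 2.75, 4.64, 3.63 and 5.43 TPM, and the endothelial gene Plvap at 10.6, 2.90, 1.68 and 5.85 TPM against 4.39, 4.03, 3.46 and 6.74 TPM, both with several-fold spread within the lean control rats. The fibroblast genes Pdgfra (65.1 ± 17.5 and 60.2 ± 6.94 TPM) and Dcn (10.9 ± 2.20 and 9.68 ± 2.97 TPM) overlapped, and the other members of these lists have no symbol here (2 of 6 fibroblast, 1 of 8 endothelial and 3 of 6 mural genes were named). The levels also differed between the cohorts: Tagln was at 55.2 ± 5.40 TPM and Col27a1 at 12.2 ± 3.55 TPM in untreated lean rats. Whether the amount of vessel or stroma differed between dissections was not tested.

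Globin genes, markers of red blood cells, had higher means and class II antigen presentation genes lower means in the obese + TT rats, all with overlap. Hba-a1, alpha globin, was at 3303, 1278, 1287 and 1213 TPM in lean control and 4023, 2641, 4444 and 3109.9 TPM in obese + TT rats. Rat 13 was more than 2-fold above the next lean control rat and lay among the obese + TT rats. The log2 fold change was 1.12 (adjusted p = 0.427 from limma) with it and 1.47 (adjusted p = 0.0223) without it. With rat 14 left out instead, Hba-a1 gave 1.01 (adjusted p = 0.833 from limma). Hba-a2, whose reads can be shared with Hba-a1, was at 622 ± 325 and 1273 ± 244 TPM, and Hbb at 1082 ± 421 and 1659.6 ± 515 TPM. Hba-a2 had a log2 fold change of 1.45 without rat 13 (adjusted p = 0.0169 from limma) and 1.07 without rat 14 (adjusted p = 0.767). In the class II group, Cd74 (the invariant chain) was at 87.0, 58.9, 64.7 and 63.5 TPM against 52.9, 26.4, 32.0 and 68.9 TPM, and RT1-Da at 28.2, 16.3, 25.1 and 20.9 TPM against 15.2, 10.1, 11.1 and 23.3 TPM, with obese + TT rat 20 inside the lean control range for both. Their summed level with RT1-Db1 was 80.3 to 118.6 TPM in the lean control and 37.2 to 98.3 TPM in the obese + TT rats.

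**Figure D5:**
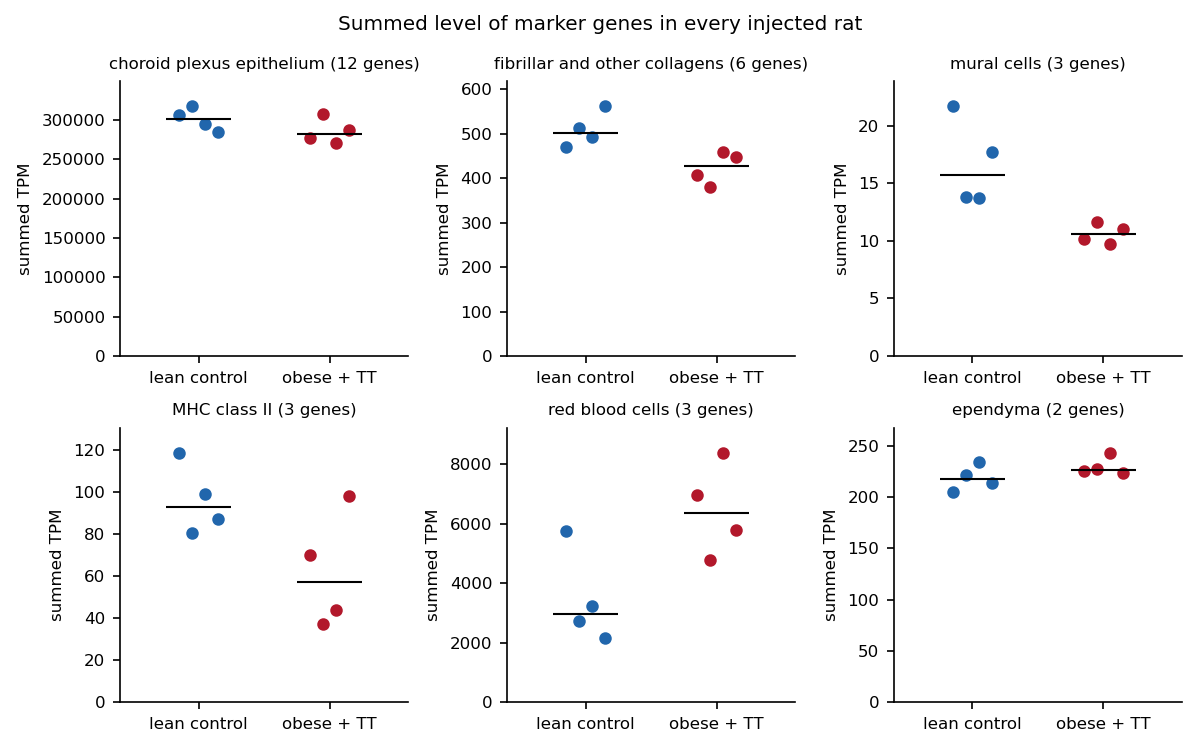
Summed TPM of the named members of 6 marker lists in every injected rat (points; y axes start at 0) with the group median (line). Collagen and mural sums lie lower in all 4 obese + TT rats (381 to 459.7 and 9.70 to 11.7 TPM) than in the lean control rats (470.3 to 562 and 13.7 to 21.7 TPM), and the other 4 sums overlap. The mural sum includes Myh11, which has a symbol only through the study's list. The 2 mural members named by abundance summed to 5.27 to 13.5 TPM in the lean control and 4.85 to 7.16 TPM in the obese + TT rats, with overlap.

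In the class I and interferon group, 9 genes are named by abundance, and 2 were lower without overlap, none higher. Over all genes named by abundance these shares were 2.05% lower and 3.43% higher. Bst2 (tetherin), induced by interferon, was at 123, 139, 146 and 131 TPM in lean control and 85.8, 91.6, 116 and 99.6 TPM in obese + TT rats (log2 fold change -0.46, standard error 0.10, adjusted p = 0.327 from limma). B2m, the light chain of class I molecules, was at 634, 520.0, 541 and 508 TPM against 487, 425, 459.6 and 457 TPM (log2 fold change -0.26, standard error 0.08, adjusted p = 0.463 from limma). The heavy chain gene RT1-A1 (114 ± 53.0 and 129 ± 31.4 TPM) is one of a family of near-identical genes whose reads can be split, so its value is uncertain.

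Growth factor and morphogen genes had lower means in 7 of 9 cases, against 990 of 2244 over all genes named by abundance. Of the 9 named by abundance, 1 was higher (3.43% over all) and 3 lower (2.05% over all) without overlap. The median log2 fold change of the 9 was -0.29. Vegfa, an angiogenic factor, was at 63.4, 69.2, 64.8 and 72.4 TPM in lean control and 50.8, 48.0, 54.7 and 59.7 TPM in obese + TT rats (log2 fold change -0.34, standard error 0.08, adjusted p = 0.327 from limma). Sfrp1, a secreted Wnt antagonist, was at 104 ± 3.77 and 82.6 ± 4.78 TPM (log2 fold change -0.33, standard error 0.06, adjusted p = 0.265 from limma), and Tgfb2 at 106 ± 4.33 and 97.0 ± 7.55 TPM. Sostdc1, a secreted antagonist of bone morphogenetic proteins (BMP) and Wnt, was the one higher, at 1288, 1128, 1089 and 1313 TPM against 1405, 1469, 1499.5 and 1422 TPM (log2 fold change 0.27, standard error 0.07, adjusted p = 0.427 from limma). The genes Id1, Id2 and Id3, targets of BMP signalling, had lower means with overlap: Id1 was at 68.0 ± 14.0 and 49.1 ± 7.81 TPM, Id2 at 116 ± 14.0 and 94.4 ± 3.21 TPM and Id3 at 63.6 ± 13.0 and 51.0 ± 4.83 TPM (log2 fold changes -0.45, -0.29 and -0.30). Gdf11, a TGF-beta family ligand on the study's list, was at 28.8 ± 3.21 and 21.0 ± 1.15 TPM (log2 fold change -0.45, adjusted p = 0.327 from limma). Its log2 fold change was -0.53 without rat 13 (adjusted p = 0.0318 from limma) and -0.42 without rat 14 (adjusted p = 0.734).

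Leptin, insulin and IGF genes were close to level. Of 10 named by abundance, Prlr was the only one without overlap, and the median was 0.03 (-0.01 with the TPM recomputed without Ttr). The shares without overlap over all genes named by abundance were 3.43% higher and 2.05% lower. Igf2, at 1962 ± 154 and 1982 ± 166 TPM, and Igfbp2, at 3345 ± 358 and 3581 ± 249 TPM, overlapped. The fa allele is a point mutation, so the transcript of the leptin receptor Lepr does not check the genotype. Lepr was at 58.8, 359, 43.1 and 53.0 TPM in lean control and 57.4, 53.6, 85.7 and 62.8 TPM in obese + TT rats. Rat 14 was more than 4-fold above every other injected rat, and the log2 fold change of Lepr, -0.39, became 0.32 without that rat. Among imprinted growth genes, 5 are named by abundance, and Cdkn1c, a cyclin-dependent kinase inhibitor, was higher without overlap at 146, 128, 122 and 157 TPM against 162, 187, 190.5 and 164 TPM (log2 fold change 0.35, standard error 0.09, adjusted p = 0.427 from limma). Zim1, of the Peg3 domain and named through the study's list, was at 4.05, 6.57, 6.62 and 7.24 TPM against 2.87, 2.92, 3.56 and 3.57 TPM (log2 fold change -0.88, standard error 0.18, adjusted p = 0.327 from limma). Without rat 13 its log2 fold change was -1.06 (adjusted p = 0.0223 from limma), and without rat 14 it was -0.83 (adjusted p = 0.734). Cdkn1a, the p53-induced inhibitor, was at 166 ± 23.6 and 144 ± 9.29 TPM with overlap.

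Steroid-related genes gave little contrast. None of the 7 steroid receptor genes has a symbol here, the androgen receptor among them, so they were not analysed. Of 30 genes known to respond to androgens in other tissues, 11 are named by abundance, with a median log2 fold change of -0.01. Among the 11, 2 were lower without overlap and none higher, against 2.05% and 3.43% of all genes named by abundance. The 2 were B2m, given above, and Fads1, a fatty acid desaturase, at 416, 358, 345 and 393 TPM in lean control and 336, 324, 330.1 and 335 TPM in obese + TT rats (log2 fold change -0.19, standard error 0.07, adjusted p = 0.543 from limma). Acsl3, a long-chain acyl-CoA synthetase induced by androgens in prostate cells, was at 84.8 ± 14.1 and 67.3 ± 7.19 TPM with overlap, and Elovl7 at 377 ± 42.3 and 405 ± 18.1 TPM. Of steroid-metabolising enzymes 3 are named, all overlapping, the highest being Hsd17b10 at 98.9 ± 5.19 and 104 ± 5.78 TPM and Hsd17b4 at 51.0 ± 2.73 and 54.7 ± 2.86 TPM. Among 4 glucocorticoid-responsive genes named by abundance none was without overlap; Sgk1 was at 121 ± 10.5 and 117 ± 22.5 TPM and Mt2A, a metallothionein, at 11.9 ± 4.16 and 6.47 ± 3.15 TPM.

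Most lipid genes had overlapping groups. Over all genes named by abundance, 2.05% were lower and 3.43% higher without overlap. In fatty acid synthesis, 6 genes are named by abundance, 1 was lower without overlap (Fads1) and none was higher without overlap. Their log2 fold changes ran from -0.24 to 0.20 with a median of -0.19. Scd2, a stearoyl-CoA desaturase, was at 350.0, 322, 293 and 365 TPM against 272, 276, 278 and 295 TPM, where only 1 obese + TT rat reached the lowest lean control rat, and Fads2 was at 193 ± 26.8 and 168 ± 9.51 TPM and the transcription factor gene Srebf1 at 87.9 ± 14.4 and 75.9 ± 8.40 TPM. The oxidation genes had a median of 0.08 over 7 named by abundance, all overlapping, with Ucp2 at 87.3 ± 21.9 and 109.5 ± 15.7 TPM and Hadha at 92.5 ± 3.92 and 94.8 ± 3.25 TPM. Acadl, a long-chain acyl-CoA dehydrogenase on the study's list, was at 24.6, 24.3, 27.1 and 24.9 TPM against 29.1, 31.0, 32.4 and 29.9 TPM. Decr1 (82.5 ± 5.16 and 99.4 ± 7.95 TPM) and Amacr (66.9 ± 1.40 and 81.6 ± 5.49 TPM), enzymes of unsaturated and branched fatty acid oxidation, were higher without overlap and were picked after their values were seen. Sterol synthesis was level, with a median of -0.06 over 6 genes, Fdps at 70.3 ± 5.71 and 65.5 ± 3.51 TPM and Msmo1 at 58.3 ± 7.63 and 57.3 ± 4.36 TPM.

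Chaperones had lower means in 11 of 13 cases in each of the lists below, without a gap between the groups. The share with a lower mean over all genes named by abundance was 990 of 2244. All 13 heat shock genes and all 13 genes of endoplasmic reticulum stress named by abundance overlapped, with medians of -0.16 and -0.14. Without overlap, 3.43% of all genes named by abundance were higher and 2.05% lower. Hsp90aa1 was at 541, 739, 901 and 842 TPM against 610.2, 555, 604 and 690.4 TPM, and Hspa5 (BiP) at 589.5, 752, 818 and 873 TPM against 607, 601, 589 and 709 TPM. Rat 13 had the lowest lean control value of both, and without it the log2 fold changes were -0.43 and -0.38 (adjusted p = 0.141 and 0.149 from limma). Hspb1, a small heat shock protein gene added here after its values were seen, was at 65.8, 99.0, 112 and 115 TPM against 76.2, 78.2, 82.9 and 76.3 TPM (log2 fold change -0.29, standard error 0.15, adjusted p = 0.686 from limma). Rat 13 lay below every obese + TT rat in Hspb1, and without it the log2 fold change was -0.47 (adjusted p = 0.0491 from limma). With rat 14 left out instead, Hspb1 gave -0.28 (adjusted p = 0.916 from limma). Hspa8 (681 ± 53.9 and 699.6 ± 68.8 TPM) and Calr (781 ± 122 and 703 ± 11.4 TPM) overlapped, as did Manf (227 ± 24.8 and 179 ± 21.3 TPM) and the mitochondrial Hspe1 (503 ± 152 and 378 ± 29.0 TPM). Psat1, of serine synthesis and named through the study's list, was higher without overlap at 24.8 ± 0.73 and 30.5 ± 1.66 TPM. Only Jund of 22 immediate early genes is named, at 61.0 ± 10.6 and 66.6 ± 11.9 TPM.

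Housekeeping complexes stayed near 0 in the median. The background for the counts here is 3.43% higher and 2.05% lower without overlap over all genes named by abundance. Of 76 nuclear genes of oxidative phosphorylation, 4 were lower without overlap and none higher (median -0.04): Uqcrb (216 ± 32.6 and 174 ± 10.0 TPM), Ndufa4 (991 ± 116 and 818 ± 46.0 TPM), Ndufa13 (729 ± 57.7 and 627 ± 45.9 TPM) and Ndufc2 (294 ± 7.45 and 261 ± 18.0 TPM). The most abundant, Cox8a (2477 ± 288 and 2291 ± 207 TPM) and Atp5me (2832 ± 652 and 2589 ± 267 TPM), overlapped. Of 75 ribosomal protein genes, 5 were higher and 1 lower without overlap (median 0.02), and 3 of the 5 are the uncertain identifiers of Rps27a and Rpl7a below. Rps28 was the lower one (774 ± 64.8 and 676 ± 34.5 TPM), while Rpl41 (4123 ± 418 and 4093 ± 141 TPM) and Rps27 (2278 ± 321 and 1968 ± 41.1 TPM) overlapped. Of 30 proteasome genes, 2 were higher and none lower (median 0.04), Psmb1 at 396 ± 7.39 and 431 ± 18.5 TPM and Psmb4 at 125 ± 2.23 and 137 ± 6.17 TPM, and Psmb6 overlapped at 197 ± 3.23 and 200.2 ± 21.9 TPM. Of the 13 mitochondrial genome transcripts, 12 overlapped, Mt-co1 at 13597 ± 379 and 13897 ± 804 TPM and Mt-co3 at 15968 ± 1259.6 and 15520.3 ± 1790.3 TPM.

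Some of the largest listed differences belong to genes whose values can fail or split in estimation. Mt-atp8 was listed at 0 in lean control rats 14 and 15 and at 12730.0 and 11719 TPM in rats 13 and 16, against 13673 to 20675 TPM in the obese + TT rats. It overlaps Mt-atp6 in the mitochondrial genome and was above 0 in all 12 untreated rats, so it is given as listed, with no fold change. Rps27a (39.8 to 84.0 TPM in lean control, 88.8 to 142 TPM in obese + TT rats), Chchd7 (29.7 to 111 and 111 to 167 TPM), LOC100911515 (42.7 to 72.2 and 12.4 to 42.2 TPM) and Rpl7a, which stands under a pair of identifiers with identical values (184 to 206 and 207 to 232 TPM), are also given as uncertain. Chchd7 and LOC100911515 varied more than 1.5-fold within a group, and reads of Rps27a and Rpl7a can be split between identifiers. Such spread is not particular to Chchd7 and LOC100911515. Lean control rats also ran from 4.79 to 8.95 TPM for Nphs1, from 5.75 to 14.8 TPM for Rrh and from 1.56 to 5.02 TPM for Arntl.

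Abundant secreted proteins included both directions. Their genes were picked after their values were seen. Cst3, cystatin C, the most abundant gene without overlap, was at 33204, 37532, 35769.6 and 33074 TPM in lean control and 28501, 29468, 29870.1 and 28311 TPM in obese + TT rats (log2 fold change -0.26, standard error 0.09, adjusted p = 0.536 from limma). Selenop, the selenium carrier, was at 74.5, 150.3, 155 and 82.2 TPM against 66.4, 61.0, 71.2 and 57.8 TPM, the lean control rats again forming a high and a low pair. A2m, the protease inhibitor alpha-2-macroglobulin, was at 183 ± 30.3 and 127 ± 12.6 TPM, Mif, a cytokine, at 108 ± 12.9 and 143 ± 16.4 TPM and C1qtnf3, an adipokine-like protein, at 93.7 ± 13.0 and 133 ± 13.7 TPM, none with overlap (log2 fold changes -0.52, 0.41 and 0.51). Ppp1r1b, a phosphatase inhibitor known from striatal neurons, was at 424 ± 38.6 and 453 ± 40.4 TPM with overlap. The striatal neuropeptide gene Penk was at or under 2.81 TPM in every injected rat.

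The same contrast in the untreated cohort, obese against lean, shares no rat with this one, and a single fit of all 20 libraries tested whether the 2 contrasts differ. Among 12094 genes, 1 (0.00827%) had an adjusted p under 0.05 for that difference, and 1029 had an unadjusted p under 0.05. The gene was Bicdl1, a dynein adaptor named through the study's lists, at 19.2, 21.0, 17.5 and 18.9 TPM in lean control and 15.5, 13.3, 14.6 and 10.1 TPM in obese + TT rats, against 15.2 ± 2.44 TPM in untreated lean and 23.5 ± 3.52 TPM in untreated obese rats (SD over 6 rats). Its contrast was -0.53 in the injected and 0.62 in the untreated cohort, a difference of -1.15 (standard error 0.18, adjusted p = 0.0477 from limma), which was no longer past the threshold without rat 14 (adjusted p = 0.207), rat 16 (0.0874), rat 18 (0.145) or rat 19 (0.0597). The next genes by p were Adamtsl4 (-0.68), Nphs1 (-1.56), LOC103693375 (-0.76) and AY172581.24 (1.26), with adjusted p from 0.125 to 0.132 in limma. Testosterone, the oil injections and membership of a cohort cannot be told apart in this difference.

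Read side by side, most leading genes had values near 0 in the untreated contrast. Untreated log2 fold changes were -0.11 for Prlr, -0.05 for Pik3ap1, -0.01 for Ube2v2 and -0.16 for Nphs1, and the differences from the injected contrast had adjusted p of 0.517, 0.356, 0.132 and 0.125 in limma. Groups were without overlap in both cohorts, in the same direction, in 4 genes, which were Cacna2d2, Cst3 and ENSRNOG00000001173, all lower, and Cdc25b, higher. In 2 genes the directions were opposite, Fhod3 and ENSRNOG00000019108.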

How the data were processed

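RNA-seq libraries of the choroid plexus, 1 per rat, were made with paired-end reads, which per the labels were aligned to Rnor_6.0 with STAR 2.7.9a. The authors deposited TPM and FPKM per Ensembl gene and rat, each library's TPM adding up to the same total within rounding. RSEM 1.3.3 is also listed in the submitters' processing notes, with no role given. The FPKM deposited by the authors are the TPM times 1 factor per rat and were not compared. Read counts and depth were not analysed here, so no count model was used.

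Groups came from the labels (8 of 20 libraries: 4 lean control, 4 obese + TT). Genes whose mean reached 1 TPM were tested on log2(TPM + 0.1) with limma 3.58.1 (R 4.3.3, empirical Bayes with trend, those 8 libraries only), with Benjamini-Hochberg adjustment over 11939 genes and a threshold of 0.05. Fold changes on this scale understate those of low genes. The difference between cohorts was an interaction term over all 20 libraries. The code was tested on simulated data. Symbols came from the study's supplementary sheets and matched 2616 of 32883 identifiers. Named genes were, of those with a symbol, the 10 with the smallest p, the 12 highest and 12 lowest log2 fold changes without overlap, up to 4 members without overlap and 2 by mean TPM of each gene list, and the 5 with the smallest p for the difference. A further 31 genes (Bhlhe41, Rdh11, Rlbp1, Crabp2, Rarg, Acsl3, Lepr, Slc12a2, Slc4a10, Aqp1, Id1, Id2, Id3, Sfrp1, Tgfb2, Cst3, Selenop, A2m, Mif, C1qtnf3, Usp2, Hba-a2, RT1-Db1, Mt2A, Fads2, Srebf1, Decr1, Amacr, Manf, Hspe1 and Hspb1) were chosen after their values were seen. The comparison, its members and the gene lists were chosen with earlier results of these data known. Alternatives changed the pseudocount, the filter, the limma prior, the library weights, the scaling and the rats included. Columns of the authors' own comparisons in the supplementary sheets were used only for symbols and list membership. Promoters were matched by symbol in RefSeq (GRCr8), and Wee1 and Ube2v2 had no entry. A few genes are not reported here.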

Additional observations from a re-analysis of the deposited data

Results flagged for a closer look

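For 158 named genes, 4 measures of the libraries and 8 sums of marker genes, a rat was marked where its gap to the nearest rat of its group, over the range of the group, passed Dixon's 95% critical value for 4 samples. Of 340 groups of 4 rats, 316 of them of single genes, 19 (5.59%) were marked, all of them in single genes, and chance alone marks about 1 in 20. Lean control rat 13 stood apart from the other 3 in Cdc25b (1.72 TPM, against 1.04 to 1.09 TPM), Hba-a1 (3303 TPM, against 1213 to 1287 TPM), Hr (4.28 TPM, against 3.54 to 3.63 TPM), Wee1 (12.0 TPM, against 7.87 to 8.24 TPM) and Hba-a2 (1106 TPM, against 409 to 496 TPM). Rat 14 did so in LOC100911515 (72.2 TPM, against 42.7 to 47.0 TPM) and Lepr (359 TPM, against 43.1 to 58.8 TPM), rat 15 in Igf2 (1732 TPM, against 2022 to 2051 TPM) and Jam3 (123 TPM, against 141 to 144 TPM) and rat 16 in Myh11 (6.15 TPM, against 8.08 to 8.43 TPM) and Slc4a8 (4.44 TPM, against 3.16 to 3.29 TPM). Among the obese + TT rats, rat 17 stood apart in Psmb4 (146 TPM, against 133 to 135 TPM), rat 18 in Cd93 (0.60 TPM, against 0.98 to 1.04 TPM) and rat 20 in Cox8a (1982 TPM, against 2369 to 2414 TPM), Hspa5 (709 TPM, against 589 to 607 TPM), Jund (48.9 TPM, against 70.9 to 74.0 TPM), RT1-A1 (82.2 TPM, against 141 to 148 TPM), Usp2 (68.6 TPM, against 58.7 to 60.2 TPM) and Srebf1 (63.3 TPM, against 79.6 to 80.7 TPM).

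The contrasts of the injected and the untreated cohorts differed by a test of that difference in Bicdl1 (-1.15, standard error 0.18, adjusted p = 0.0477 from limma). In Fhod3 the obese + TT rats were all above the lean control rats (log2 fold change 0.24) and the untreated obese rats all below the untreated lean rats (-0.47), and the adjusted p of the difference was 0.132 in limma. In ENSRNOG00000019108, which has no symbol here, the values were -0.31 and 0.26, with an adjusted p of 0.125 for the difference.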

How the results depend on the processing

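No paired analysis was possible because the groups compared share no replicate numbers. The count of genes at an adjusted p under 0.05 in limma stayed at 0 with other pseudocounts, filters, no trend, library weights and scaling to the same median, and was 5 with the robust prior (Pik3ap1, Nphs1, Prlr, Ube2v2 and Cacna2d2), 4 with TPM recomputed without Ttr (Prlr, Pik3ap1, Ube2v2 and Cacna2d2) and 4 in the fit of all 20 libraries (Ube2v2, Rrh, Nphs1 and Cacna2d2). Leaving out 1 rat gave 0 to 24 (24 without rat 13, 3 without 15, 2 without 19, 1 without 17 or 20, 0 without 14, 16 or 18). The unadjusted count then ran from 642 (without rat 14) to 1261 (without rat 13), with 306 (without rat 14) to 796 (without rat 16) higher and 285 to 585 lower. Counts without overlap ran from 364 to 796 (without rat 16) higher and from 262 to 569 (without rat 13) lower. Leaving out a rat cannot bring overlap to a gene that is still tested, so a rise in these counts follows from the omission itself. Without Ttr, 739 genes were lower at an unadjusted p under 0.05, and 199 were higher and 415 lower without overlap. The difference of the cohorts' contrasts called 0 genes with a minimum mean of 0.1 TPM, 2 with scaling to the same median, and 0 to 13 when 1 rat was left out (13 without rat 13, 3 without 20, 2 without 15, 0 without 14, 16, 18 or 19). Of 2977 values of 158 named genes under alternatives, 2900 kept their sign and side of the threshold, 31 passed it and 46 turned sign. With library weights these were Car2 (0.00), Hspa8 (0.00), Msmo1 (0.02) and Slc4a5 (0.02), and without Ttr Car2 (-0.02), Igf2 (-0.02), Mt-co1 (0.00), Psmb6 (-0.02), Rsph9 (-0.01) and Aqp1 (-0.02). The ranges of those that turned when 1 rat was left out were Car2 -0.06 to 0.08, Msmo1 -0.07 to 0.06, Rgs5 -0.57 to 0.22, Slc4a5 -0.06 to 0.03, Aqp1 -0.01 to 0.05, Hspa8 -0.02 to 0.09, Plvap -0.32 to 0.54, Crabp2 -0.07 to 0.21, Lepr -0.70 to 0.32, Igf2 -0.04 to 0.07, Pdgfra -0.30 to 0.03, Rpl41 -0.05 to 0.06, RT1-A1 -0.09 to 0.51, Psmb6 -0.04 to 0.09, Sgk1 -0.16 to 0.04, Mt-co3 -0.10 to 0.04, Rsph9 -0.01 to 0.05, Mt-co1 -0.01 to 0.05. Of 551 list medians, 546 moved by less than 1 SD, and without Ttr those of CSF secretion, P-type and vacuolar ATPases, ribosomal proteins, imprinted genes and leptin signalling lay at or below -0.01 and those of proteasome and mitochondrial genes at 0.00. The causes of these shifts were not tested. The read depth behind a TPM is unknown and limits all low genes.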
